A study of Mus musculus with 6 samples.

Results

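The endothelial and sinusoid genes of the spleen described here are 10 genes, Pecam1, Cdh5, Esam, Emcn, Kdr, Flt4, Tek, Eng, Stab1 and Stab2, out of 40808 gene IDs in the table of the series. The rule takes them by name, through their Entrez gene IDs, with no threshold on a measured value. RNA came from leukaemia cells of the spleen of mice that had received bone marrow transplants, per the labels' protocols, and was read from the 3′ ends of mRNA. There were 6 libraries in 2 groups: replicates 4, 5 and 6, labelled as having no treatment, and replicates 10, 11 and 12, labelled Dox. Dose, duration, age, sex, strain, what the label Dox stands for, and any allele or transgene that Dox was meant to switch are not given in the sources used here. All 6 libraries share the transplant and the tissue. Nothing in the labels says that the 3 libraries of a group came from separate mice, so p-values measure the spread between libraries, which may be technical.

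Vessel walls are lined by endothelial cells. Those of the red pulp of the spleen line channels through which blood cells return to the circulation. These endothelial cells take up waste molecules from the blood through scavenger receptors. VE-cadherin (Cdh5), the adhesion molecules Pecam1 and Esam and the sialomucin endomucin (Emcn) sit at endothelial junctions or on the luminal surface. Kdr and Flt4 are receptors for vascular endothelial growth factors, Tek is the receptor of the angiopoietins, and endoglin (Eng) is a co-receptor for ligands of the TGF-beta and BMP family. Stab1 and Stab2, the stabilins, are paralogous scavenger receptors; Stab2 is best known from sinusoidal endothelium and Stab1 is also made by macrophages. Pecam1 is also carried by platelets and leukocytes, Esam by platelets and blood stem cells, and Eng by erythroid precursors, so that in RNA of mixed cells not every member marks the vessel wall alone.

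Depth and library make-up set how far the values can be read. Total counts ran from 5541486 to 8725767 per library, and the 10 genes together had 343 to 632 counts without Dox and 898 to 1536 with Dox. A floor of 3 counts, the most that a count of 0 allows, corresponded to 0.309 to 0.608 normalized CPM (counts scaled to the library's total over the tested genes and by TMM factors), for counting error only. The spread between libraries was wider with Dox: the common biological coefficient of variation was 0.19 without Dox and 0.515 with it. Y-linked genes had 545 to 801 counts in the libraries without Dox and 0 in each library with Dox, and Xist had 193 to 324 against 3347 to 5669 counts, so Dox and a difference in sex-linked expression cannot be told apart here. Of the T cell markers, 12 of 14 were called lower with Dox, and all 14 B cell and all 14 neutrophil markers higher. Markers of several blood cell types thus also differed between the groups, where 22.1% of all genes tested were called lower and 23.6% higher. The count filter admitted 6 of these neutrophil and 2 of these B cell markers through the libraries with Dox alone. It admitted 1 T cell marker through those without Dox alone. In such bulk RNA, fewer cells of a type and less RNA per cell cannot be told apart.

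Of the 10 members, 8 had enough counts to be tested, 2 were called higher with Dox and 0 were called lower (edgeR's quasi-likelihood test, Benjamini-Hochberg adjusted p under 0.05 over 14110 genes, which is the adjusted p given throughout). Of all genes tested, 23.6% were called higher, 22.1% lower and 45.6% in either direction, so 2 of 8 members higher is close to the share in the whole table. The median log2 fold change of the 8 was 0.96, beside 0.07 for all genes tested, and 6 of the 8 estimates were above 0. Groups did not overlap in 3 of the 8 (Kdr, Stab2 and Tek), against 59.6% of all genes tested. Tek passed the count filter through the libraries with Dox alone, so its entry into the test is not independent of its level there. Emcn and Stab1 did not pass the filter.

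**Figure D1:**
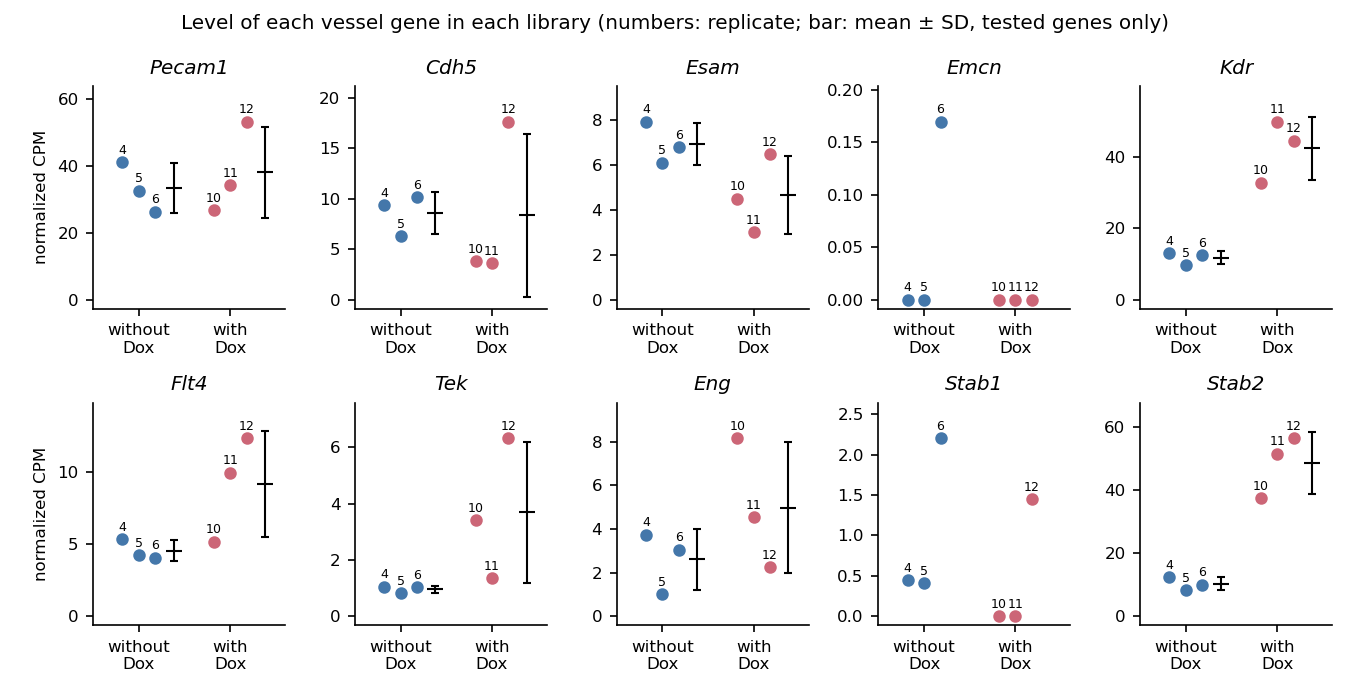
Normalized CPM of each of the 10 genes (vertical axes, linear, each gene on its own scale) in the 3 libraries without Dox (blue) and the 3 with Dox (red); small numbers are replicates and black bars are the mean ± SD for the tested genes. Kdr and Stab2 stand apart between the groups, Cdh5 is high in replicate 12 alone among the libraries with Dox, and Emcn is at 0 in 5 of the 6 libraries.

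The junction and surface genes come first. Pecam1 (Entrez gene 18613, chr11:106654213-106715281, minus strand), which holds neighbouring endothelial cells together, was at 41.0, 32.6 and 26.3 CPM in replicates 4, 5 and 6 and at 26.8, 34.2 and 53.2 CPM in replicates 10, 11 and 12. The groups overlapped: replicate 12 was the highest of all, and replicate 10 lay at the level of replicate 6. Its log2 fold change was 0.19 ± 0.30 (SE, edgeR adjusted p = 0.631), and the estimate was -0.15 without replicate 12 and -0.05 without replicate 6.

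Cdh5 (Entrez gene 12562, chr8:104101613-104144504, plus strand), the cadherin of endothelial adherens junctions, was at 9.40, 6.28 and 10.2 CPM without Dox and at 3.81, 3.6 and 17.7 CPM with Dox. Replicates 10 and 11 were below every library without Dox and replicate 12 was above every one of them, with 134 counts against 28 and 35. The group means were 8.62 ± 2.06 and 8.36 ± 8.06 CPM (SD, n = 3 each), with a log2 fold change of -0.05 ± 0.64 (SE, edgeR adjusted p = 0.955). Without replicate 12 the log2 fold change was -1.23 (adjusted p = 0.0722), and without replicate 10 or 11 it was 0.27 or 0.29, so the sign of the Cdh5 estimate rested on single libraries; it also turned to 0.05 with upper-quartile factors and 0.24 with library size only.

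Esam (Entrez gene 69524, chr9:37528089-37538319, plus strand), an immunoglobulin-family protein of endothelial tight junctions, was at 7.91, 6.08 and 6.78 CPM without Dox and at 4.49, 2.99 and 6.46 CPM with Dox. Replicate 12 lay within the range of the libraries without Dox and the other two lay below it. The log2 fold change was -0.58 ± 0.53 (SE, edgeR adjusted p = 0.40). Emcn (Entrez gene 59308, chr3:137341062-137431069, plus strand) had 1 count in replicate 6 and 0 in the other 5 libraries, so both groups were under the floor and no fold is given. Endomucin is a defining marker of venous and sinusoidal endothelium, and its counts were within the floor in all 6 libraries; why it was not counted was not tested.

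Of the 4 members that are receptors or co-receptors of growth factors, Kdr was the one called. Kdr (Entrez gene 16542, chr5:75932827-75979072, minus strand), the main signalling receptor for VEGF-A, was at 13.0, 9.73 and 12.5 CPM without Dox, from 87, 48 and 74 counts, and at 32.8, 49.9 and 44.5 CPM with Dox, from 241, 485 and 338 counts. The lowest library with Dox was above the highest without it, and the means were 11.8 ± 1.77 and 42.4 ± 8.76 CPM (SD, n = 3 each), 3.61-fold higher with Dox. The log2 fold change was 1.85 ± 0.27 (SE, edgeR adjusted p = 0.000415), and it ran from 1.66 to 2.16 with adjusted p from 1.15e-06 to 0.00478 over the 16 alternatives.

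Flt4 (Entrez gene 14257, chr11:49609679-49652739, plus strand), the receptor for VEGF-C and VEGF-D on lymphatic and some sinusoidal endothelium, was at 5.37, 4.26 and 4.07 CPM without Dox and at 5.17, 9.98 and 12.4 CPM with Dox. Replicates 11 and 12 were above all libraries without Dox, and replicate 10 was at the level of replicate 4. The log2 fold change was 1.0 ± 0.50 (SE), which did not pass (edgeR adjusted p = 0.13).

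Tek (Entrez gene 21687, chr4:94739086-94874976, plus strand) had 7, 4 and 6 counts without Dox and 25, 13 and 48 with Dox, or 1.05, 0.81 and 1.02 CPM against 3.4, 1.34 and 6.33 CPM. Every library with Dox was above every library without it, but those with Dox differed among themselves by more than the gap between the groups. The log2 fold change of 1.92 ± 0.90 (SE) did not pass (edgeR adjusted p = 0.108). Without replicate 11, its lowest library with Dox, it was 2.29 and passed (edgeR adjusted p = 0.0433). Because Tek passed the count filter through the libraries with Dox alone, these tests are not independent of its level there.

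Eng (Entrez gene 13805, chr2:32646595-32682669, plus strand) had 25, 5 and 18 counts without Dox and 60, 44 and 17 with Dox, a mean of 2.60 ± 1.41 against 4.98 ± 2.99 CPM (SD, n = 3 each). It was the member with the opposite order within the libraries with Dox, highest in replicate 10 and lowest in replicate 12, and the groups overlapped (log2 fold change 0.92 ± 0.77 (SE), with edgeR adjusted p = 0.361). At its 3′ end Eng overlaps the gene Fpgs on the opposite strand in GENCODE M21, and 3 small RNA genes (Gm26236, Gm47291 and Mir1954) lie within it on the same strand. Whether counting used strand is not given in the sources used here; Fpgs was at 4.33 ± 0.60 CPM without Dox and 2.92 ± 2.14 CPM with it (SD, n = 3 each), and its part in the counts of Eng was not tested.

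Of the stabilins, Stab2 was called higher with Dox and Stab1 had too few counts for the test. Stab2 (Entrez gene 192188, chr10:86841194-87008038, minus strand), an endocytic receptor for hyaluronan and other waste molecules, was at 12.4, 8.31 and 10 CPM without Dox, from 83, 41 and 59 counts, and at 37.6, 51.6 and 56.5 CPM with Dox, from 276, 501 and 429 counts. The groups did not overlap, and the means were 10.2 ± 2.05 and 48.6 ± 9.84 CPM (SD, n = 3 each), 4.75-fold higher with Dox. The log2 fold change was 2.24 ± 0.28 (SE, edgeR adjusted p = 0.000144), with a range of 2.04 to 2.55 and adjusted p from 1.23e-09 to 0.00236 over the 16 alternatives. On the opposite strand Stab2 overlaps 5 predicted genes in GENCODE M21, among them Gm16268 at its 3′ end. Their part in the counts of Stab2 was not tested.

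Stab1 (Entrez gene 192187, chr14:31139017-31168651, minus strand) had 3, 2 and 13 counts without Dox and 0, 0 and 11 with Dox. A single library in each group, replicates 6 and 12, held most of its counts. In a fit without a low-count filter its log2 fold change was -1.17 ± 2.26 (SE, edgeR adjusted p = 0.728). At its 3′ end Stab1 overlaps Nt5dc2 on the opposite strand, whose own level fell from 18.6 ± 3.90 to 0.22 ± 0.20 CPM (n = 3 each, ± SD; edgeR adjusted p = 8.08e-05), and its part in the counts of Stab1 was not tested. The log2 ratio of Stab2 to Stab1 within a library took the values 4.36, 3.9 and 2.11 in replicates 4, 5 and 6. In replicates 10, 11 and 12 it was 8.22, 8.65 and 5.16. A prior of 1 count, scaled to library size, was added to each gene. Stab1 had 0 counts in replicates 10 and 11, so the size depends on the added count (4.43 with 0.5 and 3.2 with 3 counts added). The mean ratio was 3.89 higher with Dox on the log2 scale, from 3.21 to 4.98 with single libraries left out, and the groups did not overlap, at the smallest p that 3 against 3 libraries allow (exact two-sided permutation p = 0.1).

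**Figure D2:**
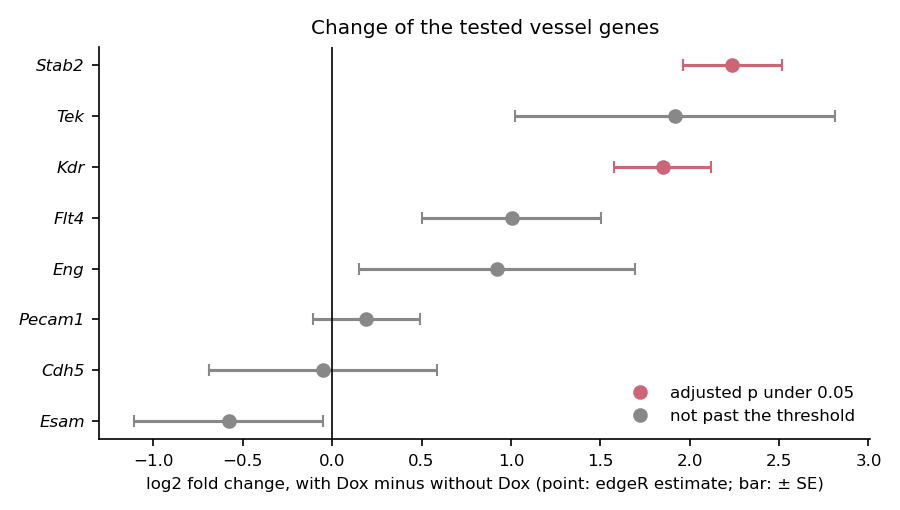
Log2 fold change with Dox against without Dox (horizontal axis) for the 8 tested members, with points for edgeR estimates and bars for ± SE; red marks an adjusted p under 0.05. Stab2 (2.24) and Kdr (1.85) are past the threshold, Tek has a similar estimate (1.92) with a far wider error, and Pecam1, Cdh5 and Esam have the 3 lowest estimates.

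The order of the levels changed with the group. One fragment is expected from the 3′ end of each transcript in this kind of library. The CPM were therefore compared between genes without division by transcript length. The order assumes that the 3′ end of each gene was captured and annotated equally well, which was not tested. Without Dox, Pecam1 was the highest at 33.3 CPM and its range did not overlap that of the next gene, Kdr at 11.8 CPM. Kdr, Stab2 (10.2 CPM), Cdh5 (8.62 CPM) and Esam (6.92 CPM) followed, and each of these 4 overlapped with its neighbour among them. Flt4 at 4.57 CPM was below Esam and above Eng at 2.60 CPM in all libraries, with no overlap of the ranges, and Stab1 and Tek followed near 1 CPM. With Dox, Stab2 at 48.6 CPM came first, above Kdr at 42.4 CPM in all 3 libraries though their ranges overlapped, and the range of Pecam1 at 38.1 CPM overlapped with that of Kdr. After a gap came Flt4 at 9.18 CPM and Cdh5 at 8.36 CPM, then Eng, Esam and Tek, each overlapping with its neighbour.

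As a share of the counts of all 10 genes, Kdr and Stab2 together made up 26.9%, 25.9% and 29.6% in replicates 4, 5 and 6 and 57.6%, 64.2% and 50.3% in replicates 10, 11 and 12. Pecam1, Cdh5 and Esam together went the other way, from 61.9%, 64.7% and 56.7% to 28.7%, 25.8% and 38.5%. The shares add up to a whole, so a rise of some members lowers the share of the others even where their own level did not differ. The summed level of the 10 genes was 69.5 to 94.3 CPM without Dox and 122.2 to 200.8 CPM with Dox.

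**Figure D3:**
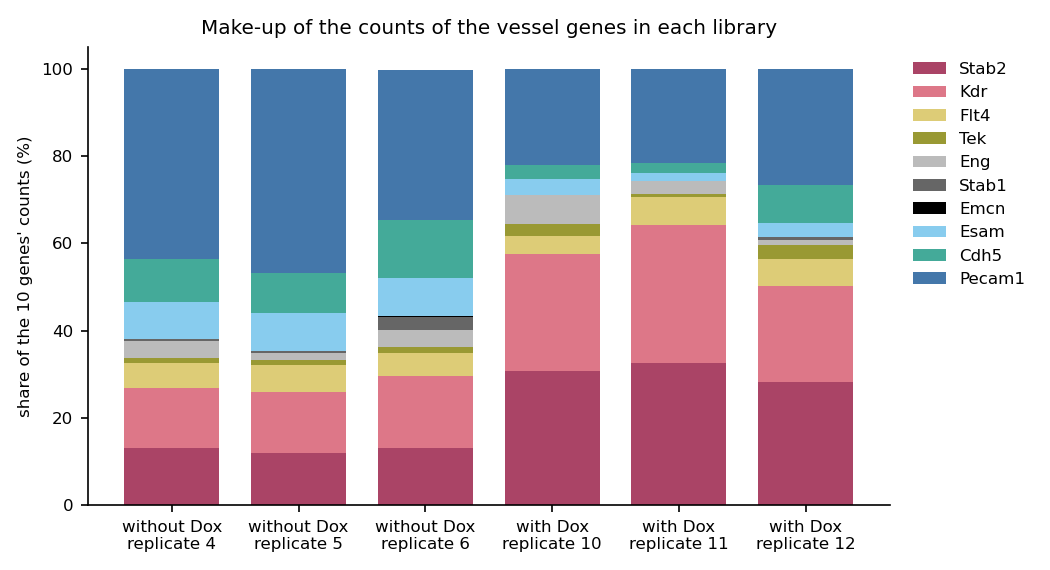
Share of the counts of the 10 genes held by each gene (vertical axis, percent) in each of the 6 libraries. The red bands of Stab2 and Kdr together take 25.9% to 29.6% without Dox and 50.3% to 64.2% with Dox, and the blue and green bands of Pecam1, Cdh5 and Esam shrink accordingly.

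Ratios within a library do not depend on scaling between libraries. The log2 ratio of Stab2 to Cdh5 took the values 0.39, 0.39 and -0.02 without Dox, then 3.26, 3.79 and 1.67 under Dox, a mean difference of 2.65. That of Kdr to Cdh5 took the values 0.46, 0.62 and 0.30 without Dox, then 3.06, 3.75 and 1.33 under Dox, a mean difference of 2.25. In both ratios replicate 12, where Cdh5 was high, lay closest to the libraries without Dox and still above them. The ratios of Tek (difference 1.96) and Flt4 (difference 1.33) to Cdh5 also did not overlap between the groups, whereas those of Pecam1, Eng, Stab1, Esam and Emcn did. Each of the 4 ratios without overlap reached the smallest possible value (exact two-sided permutation p = 0.1, or 0.225 after Benjamini-Hochberg adjustment over 9 ratios), so none could pass the threshold in this design. Leaving out single libraries, the difference ran from 2.21 to 3.27 for Stab2, from 1.74 to 2.95 for Kdr, from 1.55 to 2.2 for Tek and from 0.84 to 1.81 for Flt4. The value of a ratio does not say which of its genes differed.

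Within the libraries with Dox, replicate 12 was the highest for 7 of the 9 members with counts (Pecam1, Cdh5, Tek, Flt4, Stab1, Stab2 and Esam), replicate 11 for Kdr and replicate 10 for Eng. Without replicate 12, Kdr and Stab2 kept log2 fold changes of 1.79 and 2.10 (edgeR adjusted p = 0.000601 and 0.000209). The genes whose level across the 6 libraries was most like that of Cdh5, by Euclidean distance of centred log2(CPM + 1) among 7052 better expressed genes, were Agap3 (0.628), Rbm43 (0.638), H3c7 (0.677), Gtf2f1 (0.689) and Ifit2 (0.741). All 5 were highest in replicate 12, as a choice by likeness to Cdh5 favours, Agap3 for example at 21.8, 18.4 and 20.7 CPM without Dox and 11.4, 11.1 and 29.9 CPM with Dox. H3c7 is a histone gene with near-identical copies, so its counts are uncertain.

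Other genes of vessel growth were read from a list of 25 ligands and receptors, of which 18 were tested. With Dox, 8 were called higher and 0 lower, beside 23.6% and 22.1% of all genes tested. The median log2 fold change of the 18 was 1.14. Without replicate 5 the number higher was 5, and without replicate 10 or 12 the number lower was 1. Of the VEGF receptors, Flt1, which binds VEGF-A and limits its supply to Kdr, was at 11.6 ± 3.56 CPM without Dox and 24.6 ± 3.17 CPM with it (n = 3 each, ± SD; log2 fold change 1.07, edgeR adjusted p = 0.0187). This call was lost without replicate 4 or 5 (edgeR adjusted p = 0.0904 and 0.113) and without a low-count filter (0.0505). Of the neuropilins, the VEGF co-receptors, Nrp2 rose from 4.21 ± 1.94 to 26.7 ± 6.23 CPM (adjusted p = 0.000458), while Nrp1, the most abundant gene of the list, was at 140 ± 13.8 and 103 ± 20.6 CPM (adjusted p = 0.0829). The Nrp1 groups overlapped, and without replicate 10 it passed as lower (adjusted p = 0.0227).

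The ligand Vegfa had 18, 6 and 46 counts without Dox and 267, 275 and 387 with Dox, a log2 fold change of 3.29 ± 0.56 (SE, edgeR adjusted p = 0.00097). Without replicate 6 the log2 fold change was 4.16. Its relative Vegfb, at 22.2 ± 3.49 and 12.2 ± 6.07 CPM, did not pass (adjusted p = 0.121). On the angiopoietin side, Angpt1, the agonist of Tek, rose by 1.5 on the log2 scale (adjusted p = 0.00864, or 0.0554 without replicate 5). Angpt2, which can oppose it, had 14, 9 and 11 counts against 127, 59 and 33 (log2 fold change 2.25, adjusted p = 0.0202), a call lost without any of replicates 4, 5, 6 or 10 (adjusted p from 0.0707 to 0.146) and with limma-voom (0.115). Without replicate 10 its log2 fold change was 1.40. Tie1, the orphan relative of Tek, was at 3.77 ± 0.91 and 7.62 ± 1.12 CPM (edgeR adjusted p = 0.134, or 0.0394 with at least 10 counts in every library). Ptprb, the endothelial phosphatase that acts on Tek and Cdh5, had 87, 69 and 92 counts without Dox and 505, 585 and 543 with Dox, and at 14.2 ± 1.32 and 66.8 ± 5.91 CPM its groups lay far apart (log2 fold change 2.24 ± 0.21 (SE), with edgeR adjusted p = 2.93e-05). Plxnd1, a semaphorin receptor, rose by 3.26 (adjusted p = 0.000339). With all 6 libraries, the largest rise of the list was that of S1pr1, a sphingosine 1-phosphate receptor that lymphocytes also carry. Its log2 fold change was 3.31 ± 0.29 (SE, edgeR adjusted p = 1.67e-05), close to those of Vegfa and Plxnd1.

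Of 32 further surface and junction genes of vessels, 29 were tested, 11 were called higher and 2 lower with Dox, with a median of 0.83. Of all genes tested, 23.6% were called higher, 22.1% lower and 45.6% in either direction. When replicate 4, 5 or 6 was left out, 7, 6 and 6 were higher and 1, 0 and 0 lower; without replicate 10, 1 was lower. Plvap, the protein of endothelial fenestrae, rose from 35.6 ± 3.09 to 85.3 ± 17.6 CPM (n = 3 each, ± SD; edgeR adjusted p = 0.000872). Cd36, a fatty acid and scavenger receptor also made by platelets and macrophages, rose from 33.0 ± 7.15 to 98.2 ± 12.5 CPM (adjusted p = 0.000273). Vwf, the clotting factor stored by endothelium and platelets, had 18, 3 and 12 counts against 91, 136 and 88 (log2 fold change 2.80, adjusted p = 0.00297), and Madcam1, the addressin of marginal sinus lining cells, rose by 2.41 (adjusted p = 0.00392). Cd34, a sialomucin of capillaries and of blood stem cells, had 0 counts in each library without Dox and 69, 78 and 50 with Dox, at least 15.3-fold higher against a floor of 3 counts per library; Cd34 and Clec14a entered the test through the libraries with Dox alone. Vcam1 was the most abundant, at 266 ± 23.9 and 335 ± 50.1 CPM, and did not pass (adjusted p = 0.129); without replicate 12 it passed as higher (adjusted p = 0.0187). Aqp1 followed at 151 ± 22.3 and 122 ± 21.5 CPM with overlapping groups. Tspan7 had the largest fall, with 96, 71 and 77 counts against 5, 0 and 37 (log2 fold change -2.92, adjusted p = 0.041), a call lost without any of replicates 4, 5, 6 or 10 (adjusted p from 0.0921 to 0.106); without replicate 12, which held 37 of its counts, the log2 fold change was -5.44.

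Of 22 genes of sinusoid scavenging and lymphatic vessels, 15 were tested, 7 were called higher and 1 lower, with a median of 1.41. Over all genes tested, 23.6% were called higher and 22.1% lower. Of the 15, 3 (Lyve1, Cd209b and Ltbp4) passed the count filter through the libraries with Dox alone, and 2 of these are among the 7. Dnase1l3, a secreted nuclease of sinusoidal endothelium and of some macrophages and dendritic cells, rose from 19.8 ± 1.99 to 66.1 ± 13.3 CPM (n = 3 each, ± SD; log2 fold change 1.74, edgeR adjusted p = 0.000223). Ccl21a, a chemokine made by lymphatic endothelium and by reticular cells of the T cell zone, had 27, 3 and 13 counts without Dox and 1611, 1860 and 2042 with Dox (log2 fold change 6.56, adjusted p = 3.39e-06). Without replicate 4 it was 7.23. Ccl21a belongs to a family of near-identical copies, so its counts are uncertain. Itgb3, the integrin beta chain of platelets and of growing vessels, rose by 3.54 (adjusted p = 2.88e-06), and the Notch ligand Jag1 rose by 3.21 (adjusted p = 0.000806). Lyve1, a hyaluronan receptor related in ligand to Stab2, had 7, 3 and 0 counts against 28, 31 and 44, and the groups did not overlap. It did not pass (edgeR adjusted p = 0.0523). Its log2 fold change was 2.90, or 3.73 and 2.23 without replicate 4 or 6. It passed by DESeq2 (adjusted p = 0.0317) and limma-voom with group weights (0.0215). In edgeR it passed with upper-quartile factors (adjusted p = 0.0464) and library size only (0.0326). Mrc1, the mannose receptor, was at 49.8 ± 4.95 and 53.7 ± 4.74 CPM with overlapping groups. The gene lower with Dox was Fcna, a ficolin of macrophages, from 64.3 ± 7.15 to 29.8 ± 2.21 CPM (adjusted p = 0.00128).

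Of 24 transcription factors known from endothelium, most of which blood cells also use, 16 were tested. In this list 11 were called higher and 3 lower, against 23.6% and 22.1% of all genes tested, with a median of 1.56. Nr2f2, a factor of venous and lymphatic identity, rose from 20.6 ± 4.07 to 90.0 ± 5.97 CPM (n = 3 each, ± SD; log2 fold change 2.12, edgeR adjusted p = 4.11e-05). Erg, an ETS factor that sustains the endothelial programme, had 15, 23 and 25 counts against 49, 150 and 146 (log2 fold change 1.90, adjusted p = 0.0147, or 0.0719 without replicate 4). Its relative Fli1 rose by 1.92 (adjusted p = 0.000918) and the shear-responsive Klf2 by 1.45 (adjusted p = 0.000858). Mef2c, which B cells express strongly, had the largest rise, from 23.8 ± 1.52 to 656 ± 106 CPM (adjusted p = 5.37e-07). Ets1, Elf1 and Ets2, which lymphocytes express, fell by 0.52, 0.79 and 1.38 on the log2 scale (adjusted p = 0.0136, 0.0284 and 0.00272). The calls of Ets1 and Elf1 were lost with library size only, which raised the median of all genes to 0.38, and that of Elf1 also without any of replicates 4, 6, 10 or 11 (adjusted p from 0.0568 to 0.0868).

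**Figure D4:**
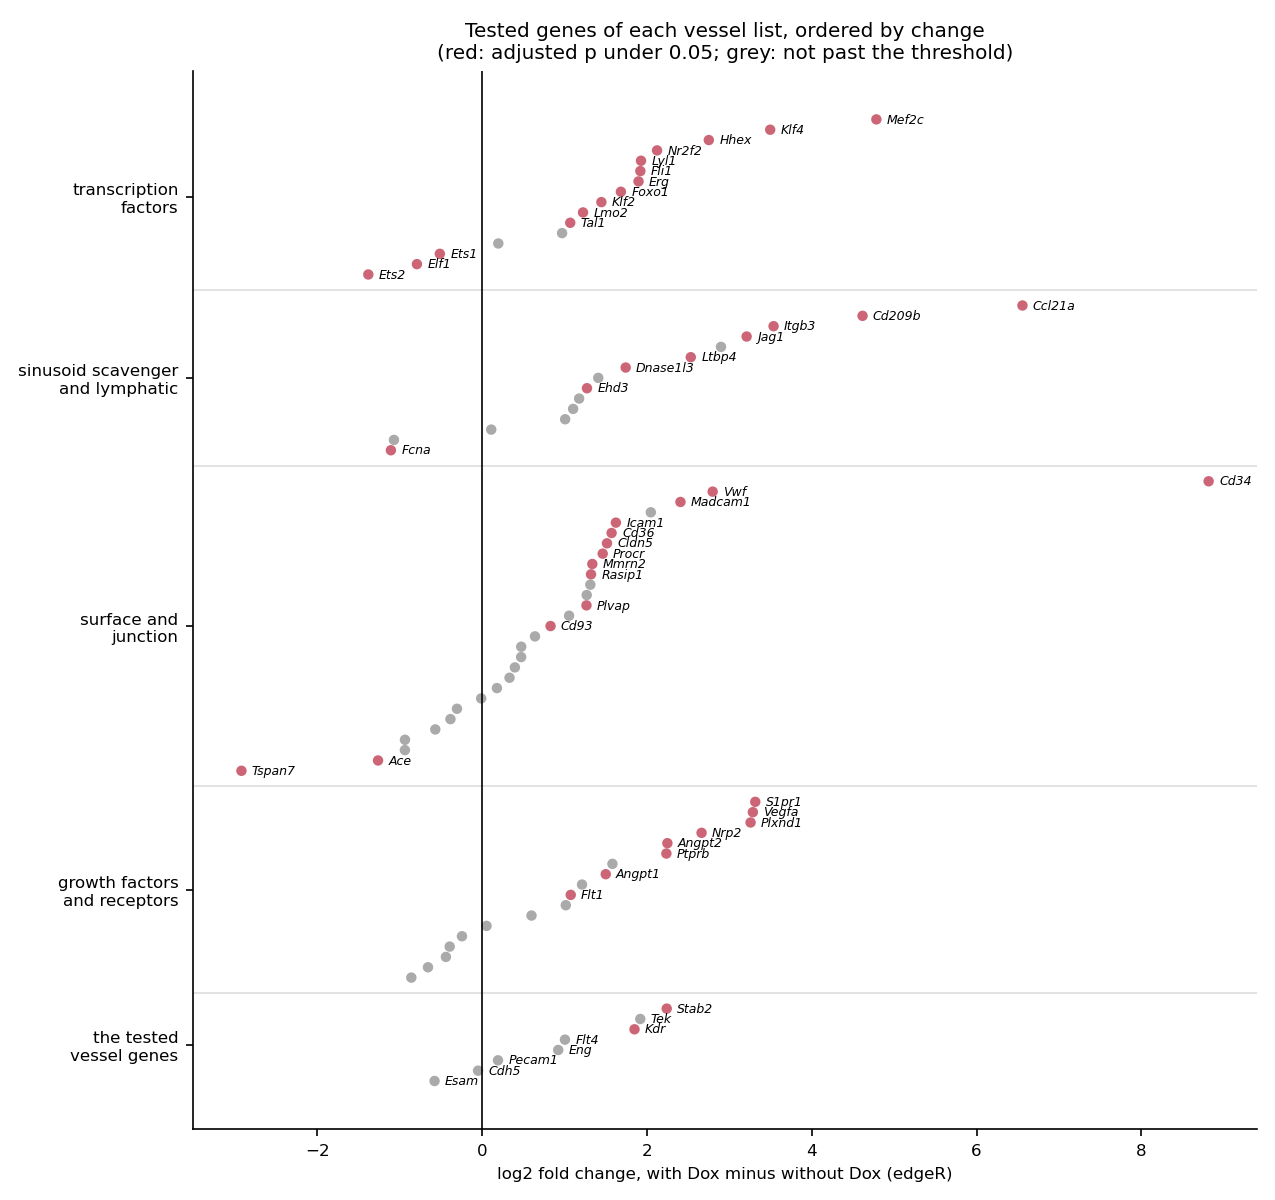
Log2 fold change with Dox against without Dox (horizontal axis, edgeR) of the tested genes in each list, 1 point per gene, ordered by change within the list; red points are past an adjusted p of 0.05 and named, and all 8 tested members are named. Kdr and Stab2 lie among the vessel genes called higher, a call made for 23.6% of all genes tested. The fitted value of Cd34 is no measure of size because its libraries without Dox were all at 0.

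Markers of other cells that can carry members of the list were read in the same libraries. For the counts of markers below, 23.6% of all genes tested were called higher and 22.1% lower. The megakaryocyte and platelet markers, some of which accompany Pecam1 and Esam on platelets, summed to 159.5 to 191.4 CPM without Dox and 430.8 to 531.1 CPM with Dox, and 11 of the 15 tested were higher and 0 lower. Among the most abundant of them, Pf4 rose by 2.31 (edgeR adjusted p = 5.03e-05) and Ppbp by 0.82 (adjusted p = 0.00767, or 0.0714 without replicate 5), while Nrgn was at 79.9 ± 9.31 and 87.1 ± 15.9 CPM (SD, n = 3 each). Stem and progenitor markers summed to 178.7 to 185.8 and 418.5 to 564.4 CPM, with 10 of 14 higher and 0 lower; of the most abundant, Ly6a rose by 2.47 (adjusted p = 6.69e-06) and Tal1 by 1.07 (adjusted p = 0.00672), and Mllt3 was at 52.1 ± 5.28 and 48.2 ± 7.13 CPM. Macrophage markers summed to 940.7 to 1130.2 and 1089.2 to 1486.4 CPM, which overlapped, with 3 of 17 higher and 4 lower; Vcam1, C1qa (125 ± 29.5 and 207 ± 81.2 CPM) and Csf1r (84.5 ± 13.4 and 142 ± 60.8 CPM) were the most abundant, and none of these 3 was called. The called ones were Mertk, Marco and Timd4, which were higher, and C1qb, C1qc, Adgre1 and Cd5l, which were lower. The call of C1qc was lost without any of replicates 4, 5, 6, 10 or 11 (edgeR adjusted p from 0.0586 to 0.0818). C1qc also lost it with upper-quartile factors (0.0712), library size only (0.328) and at least 10 counts in every library (0.0782). The call of Adgre1 was lost without replicate 4 (edgeR adjusted p = 0.0551). Without replicate 12, 7 macrophage markers were higher, and without replicate 4, 2 were lower.

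Reticular and mural stroma, the other non-blood cells of the spleen, summed to 417.3 to 450.3 CPM without Dox and 810.6 to 1040.2 CPM with Dox, with 11 of 17 higher and 2 lower, or 1 lower without any of replicates 4, 5 or 10. Ccl19 rose by 6.45, or 7.21 without replicate 4 (edgeR adjusted p = 2.4e-06) and Cxcl12 by 3.08 (adjusted p = 1.99e-05), while Col1a2 was at 221 ± 17.2 and 230 ± 119 CPM (SD, n = 3 each). Neutrophil markers summed to 57.8 to 75.7 CPM without Dox and 2383.3 to 2527.2 CPM with Dox, led by S100a9, S100a8 and Ngp. B cell markers summed to 105.4 to 140.2 and 3123.5 to 3479.8 CPM, led by Cd74, Ms4a1 and Pax5. T cell markers went from 2144.2 to 2303.7 CPM down to 225.5 to 303.5 CPM; Cd3d and Thy1 fell by 4.87 and 5.72 (adjusted p = 5.37e-07 and 3.3e-06), and Cd2 was at 128 ± 7.40 and 117 ± 34.5 CPM. Erythroid markers, led by Hba-a1, Hba-a2 and Hbb-bs, summed to 95364.1 to 105488.4 and 134144.3 to 144152.2 CPM, with 6 of 16 higher and 4 lower. Hba-a1 and Hba-a2, near-identical copies whose counts are uncertain, rose by 0.95 and 1.02 on the log2 scale (edgeR adjusted p = 2.97e-05 and 2.18e-05), while Hbb-bs fell by 1.23 (adjusted p = 4.44e-05). Some markers passed the count filter through the libraries with Dox alone, so their calls are not independent of their level there: 3 platelet, 4 stem and progenitor, 6 neutrophil, 2 B cell and 1 stroma marker, all counted as higher. The T cell marker Ptcra, counted as lower, passed through the libraries without Dox alone. The stem and progenitor, platelet, stroma, neutrophil, B cell and erythroid sums were all higher in every library with Dox than in any without it, and the part of these cells in the rise of either gene was not tested.

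**Figure D5:**
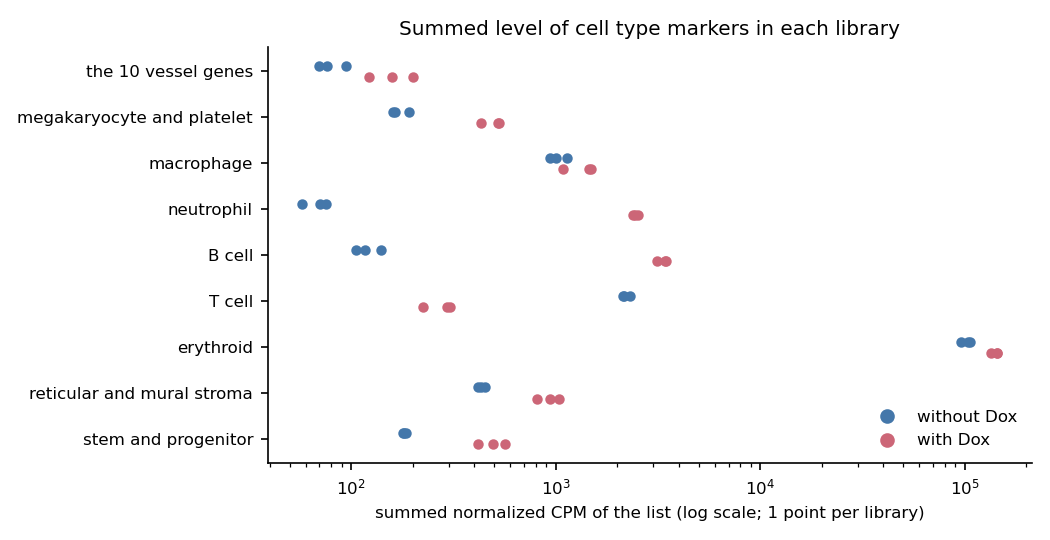
Summed normalized CPM of each marker list (horizontal axis, log scale) in each library, blue without Dox and red with Dox, 1 point per library. The 10 vessel genes (69.5 to 94.3 against 122.2 to 200.8 CPM) moved less than the neutrophil and B cell lists, the T cell list moved the other way, and the macrophage list overlapped between the groups.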

How the data were processed

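Counts of mRNA 3′ ends (QuantSeq 3′ mRNA libraries, per the labels' protocols) were analysed for 6 spleen libraries, 3 without and 3 with Dox, grouped by title. The authors deposited raw counts in a single table, unnormalized whole numbers for each Entrez gene ID and library. STAR, featureCounts and GRCm38 are named in the submitters' processing notes; versions, annotation, strand setting and handling of multi-mapped reads are not given in the sources used here. PCR copies were not marked, and floors therefore describe counting error only. Symbols came from a RefSeq table of GRCm38.p6, which matched 39374 of 40808 IDs (96.5%), all listed genes included; strands and neighbours came from GENCODE M21 on GRCm38.

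The test across genes was that of edgeR 4.0.16 (R 4.3.3): filterByExpr (minimum count 10, minimum total 15), TMM factors, the quasi-likelihood F-test on all 6 libraries without covariate, and Benjamini-Hochberg adjustment over 14110 genes at 0.05. SE is the size of the log2 fold change over the square root of F. The test was tried on simulated data with known changes. Ratios used a prior of 1 count, scaled to library size, and an exact permutation test in scipy 1.17.1. Alternatives were other factors, filters, DESeq2 1.42.0, limma-voom (limma 3.58.1), removal of dominant gene classes, a threshold of 0.01 and each library left out. From each list the text names the 3 genes with the highest mean level and, for vessel lists, the largest called rise and fall; it also names the 5 genes nearest to Cdh5. Other list genes in the text were picked with their values in view. The members, lists and tests were chosen with earlier results of these data known.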

Additional observations from a re-analysis of the deposited data

How the results depend on the processing

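No paired analysis was possible because no replicate number occurs in both groups. Kdr and Stab2 kept their direction and an adjusted p under 0.05 in all 16 alternatives. Each of these called 2 members higher, except without Dox replicate 11, where Tek made 3 (log2 fold change 2.29). That was Tek's lowest library with Dox. Estimates of members not past the threshold changed sign as follows: Cdh5 to 0.046 with upper-quartile factors, 0.236 with library size only and 0.065 with at least 10 counts in every library, and with single libraries left out it ran from -1.23 to 0.29; Pecam1 ran from -0.15 to 0.36 over those fits; the change of the ratio of Esam to Cdh5 ran from -0.56 to 0.27. The estimates over fits without a library ran from 1.75 to 2.29 for Tek, which did not pass the filter without Dox replicate 12 and then gave no value. With at least 10 counts in every library Tek and Eng gave no value. The cause was not tested.

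Over all genes, 6438 were called, from 4396 at an adjusted p under 0.01 to 7025 without a library, where the fits ran from 4794; at 0.01, 2200 of the 3324 higher genes were past the threshold. Scaling by library size only raised the median of all genes from 0.07 to 0.38, and upper-quartile factors raised it to 0.17. Growth factor and receptor genes called lower went from 0 to 3 without a filter, 1 with limma-voom and 3 with group weights, and to between 0 and 1 without a library; those higher ran from 5 to 9. Surface and junction genes called higher went from 11 to 7 without a filter and 6 at 0.01, and ran from 6 to 10 without a library. Those called lower went from 2 to 0 with library size only or at 0.01 and to 1 with at least 10 counts in every library, and ran from 0 to 2 without a library. Transcription factors called lower went from 3 to 1 with library size only and at 0.01. With at least 10 counts in every library, which removes genes low in a group, the numbers higher were 3 for platelet, 4 for neutrophil, 8 for B cell and 6 for stem cell markers. Macrophage markers called higher went from 3 to 7 with library size only and to 5 with upper-quartile factors, no filter, at least 10 counts in every library, DESeq2 or group weights, and ran from 3 to 7 without a library; those lower ran from 2 to 4. Stroma markers called lower went from 2 to 0 with library size only and 1 at 0.01, and ran from 1 to 2 without a library. Counts limit several members: Emcn, Stab1 and Tek had fewer than 50 in every library, and Eng had 5 in no-Dox replicate 5.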
